A study of Mus musculus with 21 samples.

Results

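Medium spiny neurons make up most neurons of the striatum, and 9 genes that both of their classes share were followed here: Ppp1r1b, Rgs9, Pde10a, Pde1b, Adcy5, Gnal, Bcl11b, Foxp1 and Foxp2. They were taken by symbol, as 9 of the 41128 gene symbols in 1 table of normalized read counts, and all 9 passed the filter on low values. Bulk RNA sequencing was done on striatum of wild type mice, collected 3 weeks after injection of AAV, an adeno-associated virus that carries a gene into cells. Set A held 3 libraries labelled WT, 3 given Cas9 virus and 3 given GCas9 virus. Set B held 4 libraries given GFP virus, 4 given Cas9 virus and 4 given GCas9 virus. Cas9 is the genome-editing nuclease and GFP is a fluorescent protein. The labels leave GCas9 unexplained; it is known as a Cas9 fused to a piece of Geminin, a short-lived protein. No guide, promoter or target cell type is named, it is not stated whether WT mice were injected, and all mice are given an age of 3 weeks in one field and 3 months in another. Whether replicates are separate animals is not stated, so p-values measure only the spread between these libraries, which may be technical.

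Dopamine, adenosine and acetylcholine act on spiny neurons largely by raising or lowering cyclic AMP. Gnal encodes the G protein alpha subunit that couples dopamine and adenosine receptors to the cyclase, Adcy5 the main striatal adenylyl cyclase, and Rgs9 a protein that speeds the shut-off of inhibitory G proteins. Pde10a and Pde1b encode phosphodiesterases that break down cyclic nucleotides, the latter under calcium and calmodulin. Ppp1r1b encodes the phosphoprotein that blocks protein phosphatase 1 once the cyclic AMP-dependent kinase has phosphorylated it. Bcl11b encodes a zinc finger factor needed for spiny neurons to mature, and Foxp1 and Foxp2 encode forkhead transcription factors of these neurons.

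Levels were high in every library and did not pass the test for a difference in any of the comparisons. In set A all 9 genes were on average lower with Cas9 and with GCas9 than in WT, with differences of down to -17.8% that the test did not separate from the spread between libraries, and in set B they lay on both sides of GFP. In set A the levels of these genes went up and down together between libraries of a group, least so for Foxp2. In set B this held for fewer pairs, and Ppp1r1b, Foxp1 and Foxp2 had none that passed the test.

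Reads on genes per library, in M (mega-reads), ranged from 20.34 M to 28.05 M for set A. Set B had 6.09 M to 11.07 M, and each of its Cas9 libraries (6.09 M to 7.69 M) was shallower than all GFP and GCas9 libraries. Mitochondrial genes took 6.0% to 7.57% of the reads of set A and 1.03% to 2.18% of those of set B. The fewest reads behind a value of the 9 genes were 729, for Foxp2 in a Cas9 library of set B. The sets were scaled apart, and levels are compared within a set only. As a check of the tissue label, the 8 markers of the direct and indirect spiny classes (among them Drd1a, Drd2, Adora2a and Penk) had a summed level between 100100 and 126900 normalized counts for set A, and between 48580 and 66580 for set B. The sum of the 9 markers of cortical excitatory neurons lay between 772.8 and 2695, and between 321.2 and 1427. No marker of either list was at 0 in all libraries of a group. In bulk tissue, fewer cells of a type and less RNA per cell cannot be told apart.

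The promoters of 3 of the genes are shown because the level of Bcl11b followed those of Pde1b and Pde10a closely from library to library in both sets (correlations below). They are the 250 bases before the RefSeq start nearest to the annotated gene start, 5′ to 3′ on the gene's strand in GRCm38.p6: chr15:103502784-103503033 (plus strand) for Pde1b, chr17:8801495-8801744 (plus strand) for Pde10a, and chr12:108003415-108003664 (minus strand) for Bcl11b. For Pde10a and Bcl11b the RefSeq start used lies inside the annotated gene. The Pde10a window is thus wholly, and the Bcl11b window mostly, within the annotated gene. Capitals mark matches on either strand to GGGCGG, the GC box, to TGTTTNC, a forkhead core, and to TGACG, the core of the cAMP response element.
Pde1b: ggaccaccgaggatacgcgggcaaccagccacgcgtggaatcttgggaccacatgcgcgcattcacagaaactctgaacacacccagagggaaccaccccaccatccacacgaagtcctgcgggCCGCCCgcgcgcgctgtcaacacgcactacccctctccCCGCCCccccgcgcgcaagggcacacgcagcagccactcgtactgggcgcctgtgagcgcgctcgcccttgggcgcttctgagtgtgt
Pde10a: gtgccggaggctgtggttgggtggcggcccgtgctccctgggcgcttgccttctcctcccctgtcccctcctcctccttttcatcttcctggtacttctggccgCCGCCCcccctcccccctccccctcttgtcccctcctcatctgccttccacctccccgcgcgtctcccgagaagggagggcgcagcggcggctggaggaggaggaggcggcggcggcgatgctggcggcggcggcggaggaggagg
Bcl11b: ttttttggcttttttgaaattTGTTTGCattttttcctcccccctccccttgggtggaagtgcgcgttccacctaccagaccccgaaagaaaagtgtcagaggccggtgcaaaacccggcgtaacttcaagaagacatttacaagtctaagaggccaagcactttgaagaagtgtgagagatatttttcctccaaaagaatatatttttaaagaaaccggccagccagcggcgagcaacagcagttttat
The 32851 such windows looked at did not cover all genes, and 3 of the 9 genes had no window looked at. Of these windows, 32.7% held a GC box, 17.8% the forkhead core and 17.8% the cAMP response element core. Among them were 11 windows of 6 of the 9 genes, of which 6 held a GC box, 3 the forkhead core and 1 the cAMP response element core. The Pde1b window shown had 2 GC boxes and the Pde10a window 1, while the Bcl11b window had 1 forkhead core and none of the other motifs. Pde1b had 3 windows, and the forkhead core was present among those not shown. A match describes the letters only.

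Ppp1r1b was the most abundant of the genes per length of exon, and Foxp2 the least. Per kb of exon, Ppp1r1b lay at 18240 to 23300 normalized counts over the 9 libraries of set A and at 7398 to 9709 over the 12 of set B. By normalized count, not divided by length, it was above 99.9% of genes tested in both sets. Next in both sets came the enzymes Pde1b (6913 to 9091, then 2765 to 3428), Adcy5 (5248 to 7089 and 1573 to 2455) and Pde10a (3797 to 5137 and 994.7 to 1860). Rgs9 followed at 3144 to 4248 and 1103 to 1357. Gnal lay at 1699 to 2370 and 642.2 to 826.1. The transcription factors were lowest, with Bcl11b at 1037 to 1404 and 444.6 to 564.0, Foxp1 at 534.0 to 711.1 and 246.6 to 309.8, and Foxp2 at 88.93 to 142.7 and 57.35 to 74.29. The order of the means was the same in both sets. Neighbours whose ranges overlapped were Pde1b and Adcy5 in set A, Adcy5 and Pde10a in set B, and Pde10a and Rgs9 in both; within a library the first was still above the second in 9 of 9, 12 of 12, 9 of 9 and 10 of 12 libraries. By the same count Foxp2 was above 83.2% of genes tested in set A and 89.2% in set B.

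**Figure D1:**
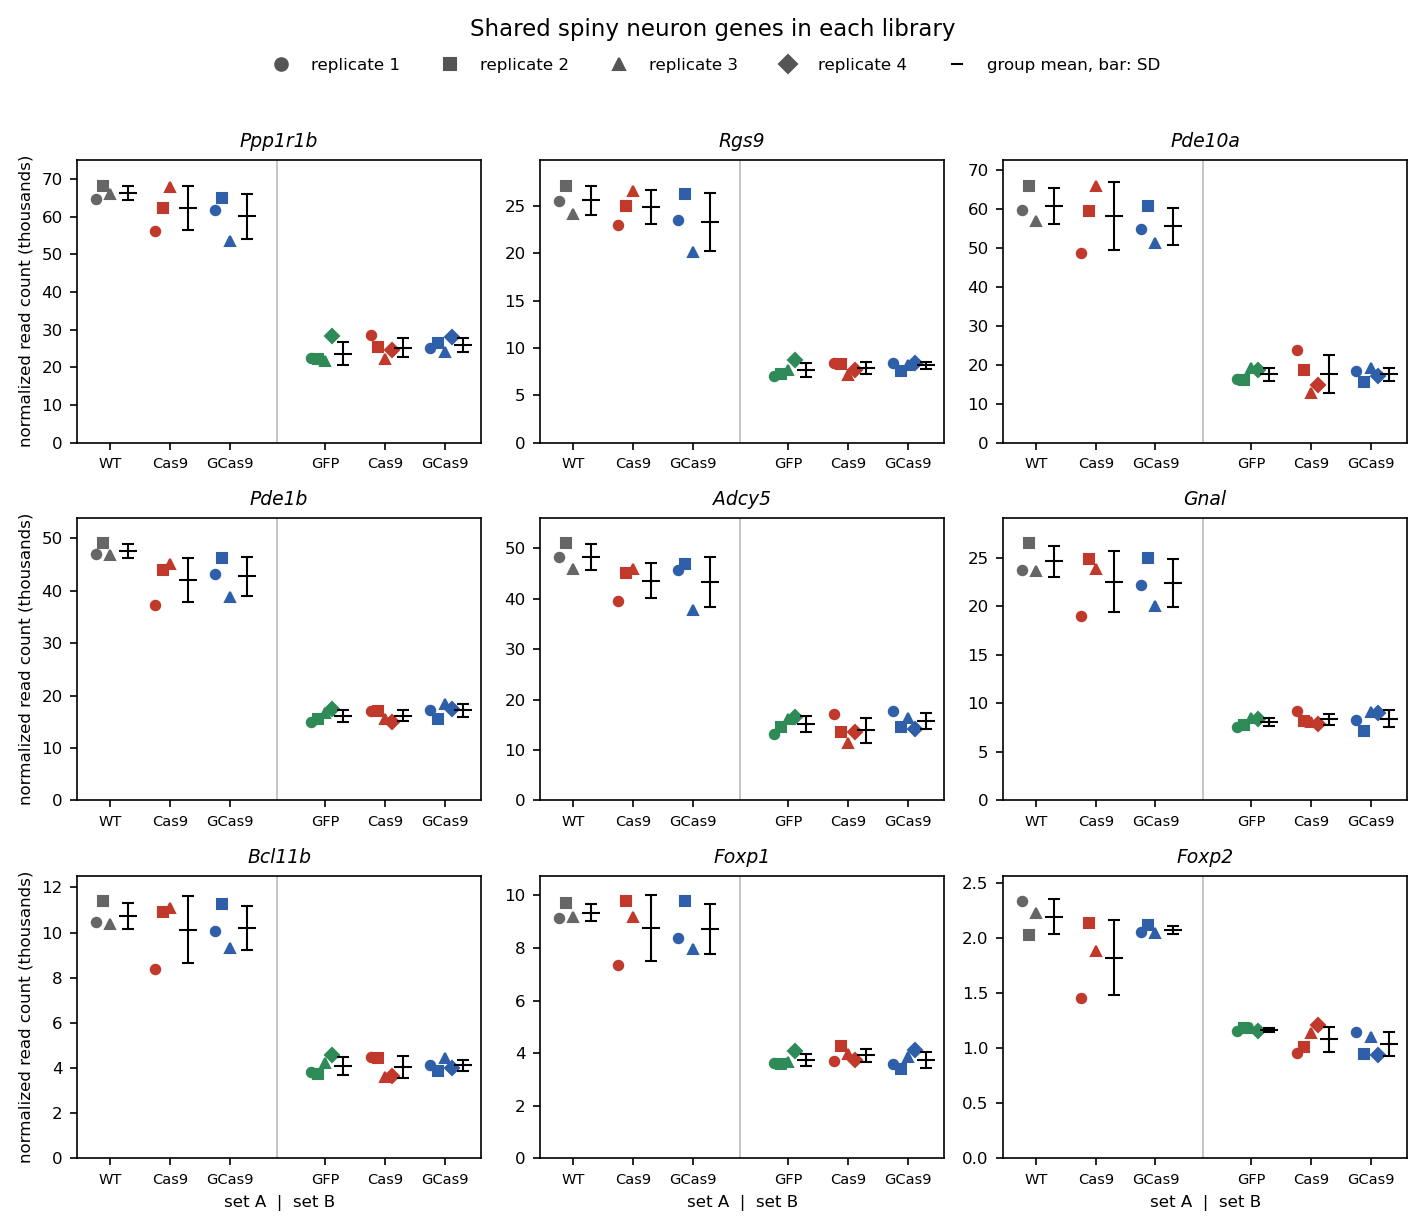
Normalized read counts (shown divided by 1000, on linear axes from 0) of the 9 genes in each library of the 6 groups, with one symbol per replicate and the group mean with its SD beside the points. In set A the libraries labelled Cas9 replicate 1 and GCas9 replicate 3 are the lowest of their groups in every panel, and the sets are not comparable in level.

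The first comparison asked how these genes differ between striatum given Cas9 virus and striatum labelled WT. Pde1b was at 46980, 49060 and 46790 normalized counts in the WT libraries and at 37300, 44010 and 45050 in the Cas9 libraries. All Cas9 libraries were thus below all WT libraries. The group means were 47610 ± 1258 and 42120 ± 4205 (SD, n = 3 each), a log2 difference of -0.18 ± 0.0995 (SE) that did not pass (limma adjusted p = 0.481). Foxp2 was at 2333, 2023 and 2222 in WT and at 1454, 2133 and 1879 with Cas9. Cas9 replicate 1 stood lowest and Cas9 replicate 2 lay within the WT range. Its difference was the largest of the 9 at -0.28 ± 0.12 (SE), or -17.8%, and did not pass either (limma adjusted p = 0.419). Without Cas9 replicate 1 the difference was -0.13 for Foxp2 and -0.096 for Pde1b.

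Adcy5, the cyclase, was at 48150, 50930 and 45780 in WT and at 39500, 45110 and 45940 with Cas9, and the groups overlapped. Gnal was at 23720, 26480 and 23650 in WT and at 18990, 24830 and 23790 with Cas9. Cas9 replicate 1 was the lowest of the 9 libraries of set A for Gnal, while the other 2 Cas9 libraries lay among the WT libraries. Ppp1r1b was at 64520, 68230 and 65930 in WT and at 56260, 62340 and 67910 with Cas9. The log2 differences of these 3 genes were -0.15 ± 0.11, -0.14 ± 0.12 and -0.095 ± 0.11 (SE). Those of Rgs9, Pde10a, Bcl11b and Foxp1 lay between -0.10 and -0.042.

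All 9 genes were thus lower on average, where 50.9% of the 15924 genes tested were, and the median of the 9 was -0.10 log2 units against -0.0031 over all genes. None passed an adjusted p of 0.05 by limma, a threshold that 0.00628% of genes passed. By edgeR and DESeq2 none of them passed either, and 0 and 116 of all genes did. At an unadjusted p under 0.05 stood Foxp2, 1 gene of the 9, and 1882 of the 15924 genes tested, a like share. In 1 of the 9 all Cas9 libraries were below all WT libraries, as in 8.86% of genes tested, and in 0 of 9 all were above, as in 10.7%. The 95% confidence intervals of the 9 genes reached from -32.2% to 16.2%. Without Cas9 replicate 1, 5 of the 9 genes were below 0 and the median was -0.016.

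GCas9 virus was compared with the same WT libraries, so the 2 comparisons are not independent. Pde1b was at 43220, 46220 and 38900 with GCas9, below all WT libraries, with a mean of 42780 ± 3682 (SD, n = 3) and a log2 difference of -0.16 ± 0.0995 (SE, limma adjusted p = 0.764). Adcy5 was at 45560, 46840 and 37700, a difference of -0.16 ± 0.11 (SE). Rgs9 was at 25480, 27150 and 24140 in WT and at 23530, 26220 and 20090 with GCas9. GCas9 replicate 3 was the lowest of all 9 libraries of set A for Rgs9, Adcy5 and Ppp1r1b, and GCas9 replicate 2 lay within the WT range for both Rgs9 and Adcy5. Foxp2 differed in its spread, at 2050, 2115 and 2047 in the 3 GCas9 libraries, all within the WT range.

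Again all 9 genes were lower on average, from -0.16 for Adcy5 to -0.076 for Bcl11b, with a median of -0.14, where 50.1% of genes tested were lower and the median of all genes was -0.00029. None passed the threshold, which 0.00628% of genes passed by limma (1 gene, and 2 genes with the replicate number as a block). At an unadjusted p under 0.05 there were 0 of the 9 and 1078 of the 15924 genes. By edgeR and DESeq2, 0 of the 9 were called, and 1 and 218 of all genes. In 1 of the 9 all GCas9 libraries were below all WT libraries (7.02% of genes tested) and in 0 all were above (9.16%). The 95% confidence intervals reached from -25.3% to 14.6%. The median was -0.062 without GCas9 replicate 3 and -0.20 without GCas9 replicate 2. Without the latter, 8 of the 9 genes had all remaining GCas9 libraries below all WT libraries, where 15.5% of all genes did.

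**Figure D2:**
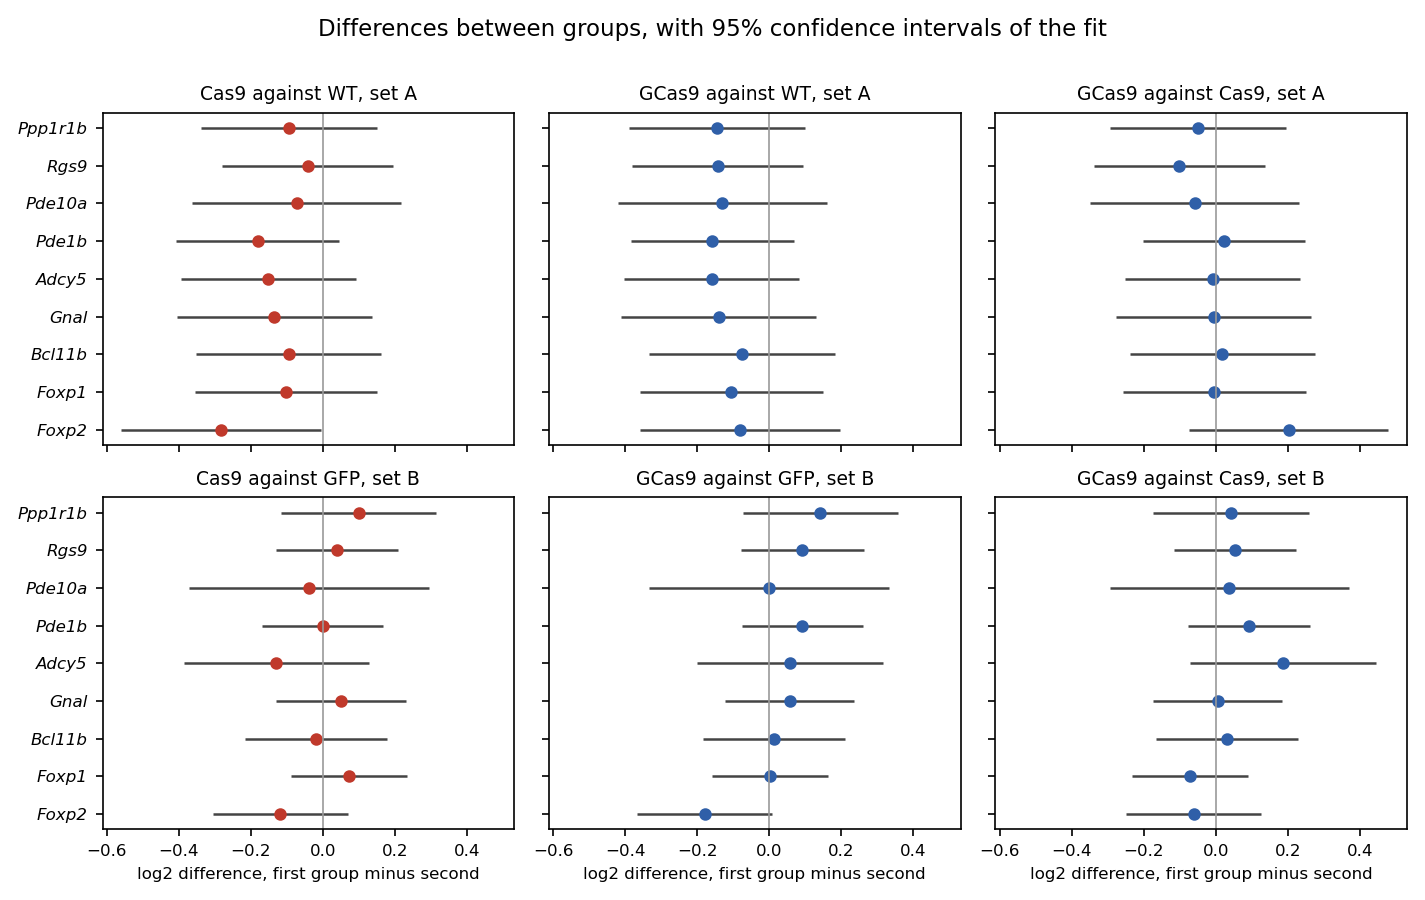
Log2 differences (points) with 95% confidence intervals of the fit (lines) for the 9 genes in the 3 comparisons of each set, the first named group minus the second. All 9 points lie below 0 against WT, while against GFP they lie on both sides, and no gene passed the adjusted threshold in any panel.

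In set B the genes were compared with a control that had received GFP virus. Ppp1r1b was at 22410, 22100, 21660 and 28190 with GFP, at 28430, 25490, 22270 and 24690 with Cas9, and at 25230, 26400, 23950 and 28130 with GCas9. GFP replicate 4 stood apart above the other GFP libraries, within the range of the Cas9 libraries and above all GCas9 libraries. The means were 23590 ± 3084, 25220 ± 2540 and 25930 ± 1776 (SD, n = 4 each), with log2 differences from GFP of 0.0995 ± 0.10 for Cas9 and 0.14 ± 0.10 for GCas9 (SE). Neither passed (limma adjusted p = 0.895 and 0.825). Without GFP replicate 4 the differences were 0.19 and 0.23, and without Cas9 replicate 1 that of Cas9 was 0.040.

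Adcy5 was at 13130, 14540, 16100 and 16610 with GFP, at 17190, 13540, 11300 and 13570 with Cas9, and at 17640, 14590, 16390 and 14200 with GCas9. The Cas9 libraries held both a value above and a value below all GFP libraries. The differences were -0.13 ± 0.12 for Cas9 and 0.058 ± 0.12 for GCas9 (SE). Pde10a, the striatal cyclic nucleotide phosphodiesterase, had the widest spread of any group, at 23890, 18620, 12780 and 14730 with Cas9 (coefficient of variation 28.0%). It was at 16280, 15970, 19170 and 18700 with GFP and at 18290, 15550, 19250 and 16970 with GCas9. The Pde10a means of the GFP, Cas9 and GCas9 groups were 17530 ± 1641, 17510 ± 4901 and 17520 ± 1610 (SD, n = 4 each).

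Foxp2 was at 1154, 1186, 1180 and 1152 with GFP, at 958.7, 1013, 1135 and 1214 with Cas9, and at 1151, 948.8, 1104 and 937.5 with GCas9. All GCas9 libraries lay below all GFP libraries, with 1151 against 1152 at the closest pair, and the GFP libraries were more alike than those of the other groups (coefficient of variation 1.49%, against 10.7% and 10.4%). The means were 1168 ± 17.35 with GFP and 1035 ± 108.1 with GCas9 (SD, n = 4 each), a log2 difference of -0.18 ± 0.087 (SE) that did not pass (limma adjusted p = 0.77). The Cas9 libraries overlapped the GFP libraries for Foxp2, with a difference of -0.12 ± 0.087 (SE).

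Of the 9 genes, 5 were below GFP on average with Cas9 (51.3% of the 15428 genes tested) and 2 with GCas9 (50.9%). Single libraries moved these counts: for Cas9, 2 of the 9 were below GFP without Cas9 replicate 3 (median 0.065) or without Cas9 replicate 4 (0.034), and 3 without GFP replicate 3 (0.015) or GFP replicate 4 (0.037). For GCas9, 5 were below without GFP replicate 1 (median -0.0073), 4 without GFP replicate 2 (0.041) or GCas9 replicate 3 (0.016), and 1 without GFP replicate 4 (0.074) or GCas9 replicate 2 (0.091). With all libraries the medians were -0.00099 and 0.057, against -0.0053 and -0.0032 over all genes. No gene of the 9, and 0% of all genes, passed the limma threshold in either comparison, which share the GFP libraries. At an unadjusted p under 0.05 there were 0 of the 9 in either, 963 genes with Cas9 and 999 with GCas9, and DESeq2 called 10 and 41 and edgeR 0 and 0. With Cas9, 0 of 9 had all libraries below GFP (2.05% of genes tested) and 0 all above (2.63%). With GCas9, Foxp2 was the 1 gene with all libraries below (1.66%) and 0 lay all above (2.5%). The confidence intervals reached from -23.5% to 24.4% with Cas9 and from -22.4% to 28.1% with GCas9. With each library taken relative to its mean over the 16 pan-neuronal genes, 8 of the 9 genes were below GFP with GCas9 and the median was -0.067.

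GCas9 and Cas9 were compared directly in each set, since this contrast was made in both. In set A, 6 of the 9 genes were lower with GCas9 (45.7% of genes tested), from -0.10 for Rgs9 to 0.20 ± 0.12 (SE) for Foxp2, with a median of -0.0057. In set B, 2 were lower (49.4%), from -0.071 for Foxp1 to 0.19 ± 0.12 (SE) for Adcy5, with a median of 0.037. The Foxp2 value of set A was 0.048 without Cas9 replicate 1, and the Adcy5 value of set B was 0.093 without Cas9 replicate 3 and 0.29 without Cas9 replicate 1. The libraries of the groups overlapped for all 9 genes in both sets. Genes with all GCas9 libraries below all Cas9 libraries made up 4.45% of those tested in set A and 0.797% in set B, and genes with all above made up 4.4% and 1.23%. None of the 9 passed, and 0% of all genes passed limma's threshold in either set. At an unadjusted p under 0.05 there were 0 of the 9 in either set, 868 genes in set A and 592 in set B, and DESeq2 called 5 and 0 and edgeR 0 and 0.

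Over both sets the mean difference between GCas9 and Cas9 ran from -0.037 for Foxp1 to 0.089 ± 0.087 (SE) for Adcy5. The intervals reached from -15.6% to 20.7%. The change of this difference from set A to set B was largest for Foxp2 at -0.26 ± 0.15 (SE, limma adjusted p = 0.997), and without Cas9 replicate 1 of set A it was -0.11. For both forms 0% of the 14486 genes tested passed by limma, and DESeq2 and edgeR called 0, with 514 and 600 genes at an unadjusted p under 0.05. Without that library the median difference between GCas9 and Cas9 in set A was -0.12, and without GCas9 replicate 3 it was 0.073.

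In set A the 9 genes varied together between libraries of the same group. Cas9 replicate 1 of set A was the lowest of its group for 9 of 9 genes, with a mean deviation of -0.20 log2 units, and GCas9 replicate 3 was the lowest of its group for 9 of 9, with -0.14. GCas9 replicate 2 was the highest for 9 of 9. Cas9 replicate 1 was also the lowest of all 9 libraries of set A for 6 genes and GCas9 replicate 3 for the other 3. In set B, Cas9 replicate 3 (-0.13) and GCas9 replicate 2 (-0.12) had the lowest mean deviations, being lowest of their groups for 5 and 6 genes, and Cas9 replicate 1 (0.14) and GFP replicate 4 (0.13) the highest, each being highest of its group for 6.

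**Figure D3:**
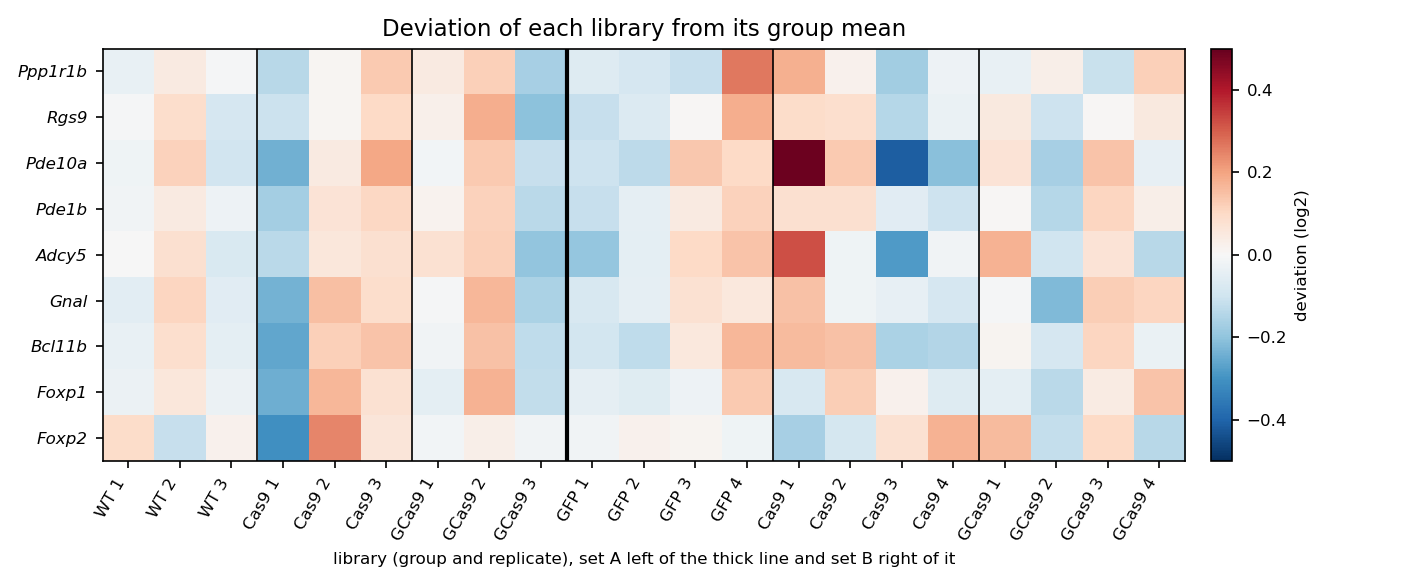
Deviation of each library from the mean of its group (log2, colour scale from -0.5 to 0.5) for the 9 genes, with libraries in columns. Whole columns share a colour in set A, such as Cas9 replicate 1 and GCas9 replicate 3, while in set B the Foxp2 row often has the opposite colour to the rows above it.

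In set A the Pearson correlation of these deviations was above 0 for all 36 pairs of genes, with a median r of 0.88 over 9 libraries. Of the pairs, 24 had an adjusted p under 0.05 by exact permutation within groups (two-sided, adjusted over the 36 pairs of the set), and 23 by Spearman rank correlation. The closest pair was Pde1b and Bcl11b, with r = 0.98 (rho = 1.00, exact permutation adjusted p = 0.0167 for each, from the smallest p the design allows, 0.00463), and r = 0.96 without the 2 libraries farthest from the median. In both sets, distance from the median was taken for the gene of a pair that comes first in the opening list. The 2 libraries left out can thus differ between pairs. Pde10a and Bcl11b had r = 0.96 (rho = 0.97), and Gnal had r = 0.98 with both Bcl11b and Foxp1. Foxp2 was the least tied gene, with r from 0.27 to 0.73 and a median of 0.57, and 0 of its 8 pairs passed. Without the 2 libraries farthest for the other gene of the pair, the r of Foxp2 went from 0.41 to -0.23 with Ppp1r1b. It went from 0.41 to -0.12 with Adcy5 and from 0.52 to -0.02 with Pde10a, so these rest on the libraries left out. All pairs share the library, its scaling and its tissue composition.

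In set B the median r was 0.55 over 12 libraries, 27 of 36 pairs were above 0, and 12 passed (9 by rank). Pde1b and Bcl11b were again the closest at r = 0.89 (rho = 0.85, exact permutation adjusted p = 0.0268, 0.95 without the 2 farthest libraries), followed by Pde10a and Bcl11b at 0.88 and Pde10a and Adcy5 at 0.87. Pde1b and Gnal were at 0.85, as were Rgs9 and Bcl11b. Ppp1r1b and Foxp1 each had 0 of 8 pairs past the threshold, with median r of 0.44 and 0.38, and Foxp1 was at -0.10 with Adcy5. The r of Ppp1r1b with Rgs9, 0.75, was 0.47 without the 2 farthest libraries. Foxp2 was below 0 with all 8 other genes, from -0.58 with Ppp1r1b (rho = -0.64, exact permutation adjusted p = 0.072) to -0.05 with Adcy5, and 0 of these pairs passed. Without the 2 farthest libraries the sign turned for Adcy5 (0.54), Foxp1 (0.13) and Pde10a (0.02). For lists of other genes, the median r between members was 0.66 in set A and 0.29 in set B for 33 genes of the cyclic AMP pathway, and 0.64 and 0.23 for 16 pan-neuronal genes. It was 0.84 and 0.24 for the spiny class markers. Some marker lists of other cell types had higher medians than the 9 genes in both sets. These were reactive astrocytes (0.93 and 0.79), microglia (0.91 and 0.81), oligodendrocytes (0.89 and 0.72) and lymphocytes (0.91 and 0.66). Lower in both sets were astrocytes (-0.16 and 0.25), endothelium (0.20 and 0.37), interneurons (0.11 and 0.30) and cortical excitatory neurons (0.66 and 0.53). Choroid plexus and ependymal markers (0.91 and -0.11) and activated phagocyte markers (0.71 and 0.77) were higher in one set only.

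**Figure D4:**
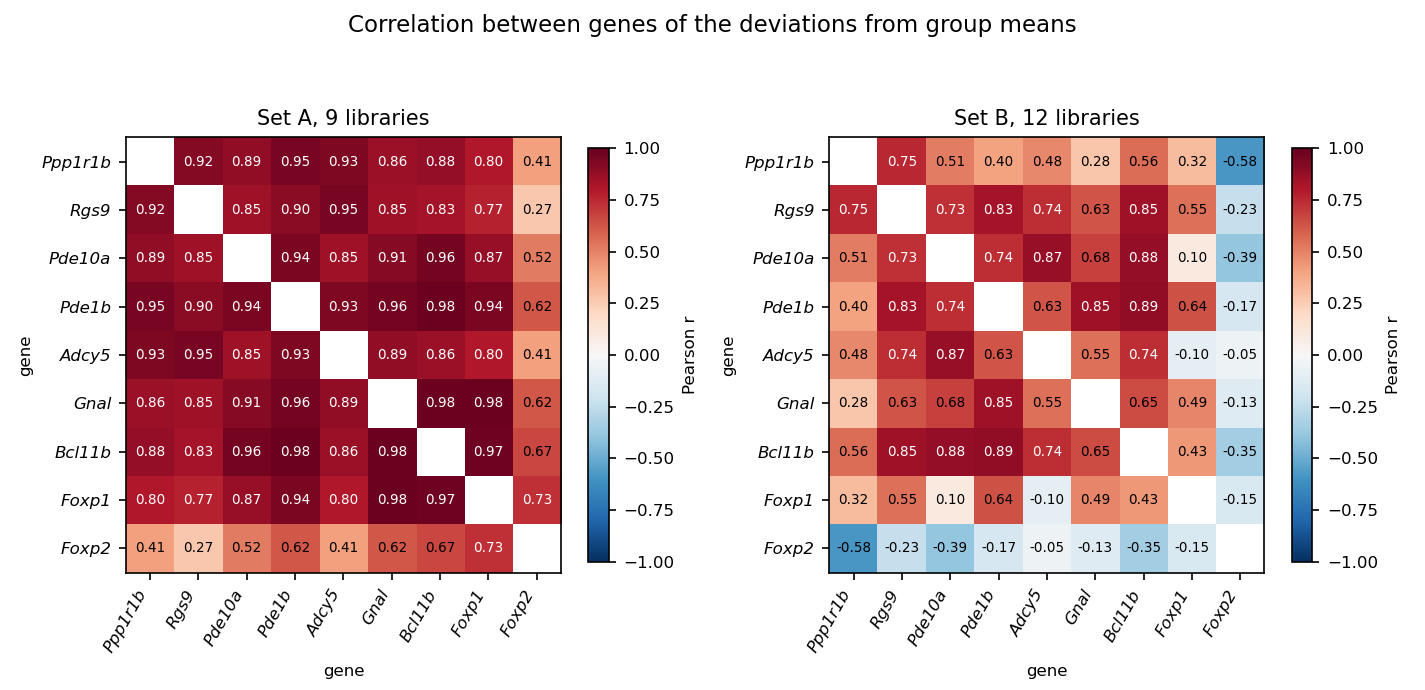
Pearson r between the deviations from group means for each pair of the 9 genes, in set A (9 libraries) and set B (12 libraries). In set A all values are above 0 and reach 0.98, and in set B the Foxp2 row and column are below 0 throughout.

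In set A, markers of other cell types stood apart in the same libraries. In Cas9 replicate 1 of set A the 6 choroid plexus and ependymal markers summed to 289000 normalized counts, of which Ttr, the transthyretin made by choroid plexus, gave 280200, against 807.6 to 11960 for the sum in the other 8 libraries. The 9 oligodendrocyte markers were also highest there, at 384200 against 198600 to 315100. In GCas9 replicate 3 the 8 reactive astrocyte markers summed to 33220 against 2535 to 14990 in the other libraries of the set, the 11 microglial markers to 29260 against 10070 to 20410, and the 8 lymphocyte markers to 20630 against 3418 to 10850. These 2 libraries were also lowest for the 16 pan-neuronal genes, at 152200 and 158000 against 165900 to 187600. In set B, GCas9 replicate 2 had the highest sum of reactive astrocyte (11640) and lymphocyte (15410) markers, and Cas9 replicate 1 the highest of choroid markers (10480 against 284.8 to 700.6). Cas9 replicate 1 also had the highest oligodendrocyte sum of set B (149400), and the 9 genes had their highest mean deviation there (0.14). Cas9 replicate 3, where that deviation was lowest (-0.13), had reactive astrocyte (6564), oligodendrocyte (109000) and choroid (415.5) sums within the range of the other libraries. Its sum of the spiny class markers (62150) was the highest of the Cas9 libraries of set B, and its pan-neuronal sum (55330) the lowest of them. The part of these cell types in the levels of the 9 genes was not tested.

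Between groups, the sum of the 8 reactive astrocyte markers was higher in all Cas9 and GCas9 libraries of set A (7443 to 33220) than in WT (2535 to 3038), and the 8 activated phagocyte markers were at 1540 to 3990 against 614.0 to 715.5. In set B the reactive astrocyte sums overlapped between GFP (3454 to 10020), Cas9 (4395 to 8120) and GCas9 (2363 to 11640). Over the pan-neuronal genes, 14 of 16 were lower with Cas9 than WT (median -0.0999) and 15 of 16 with GCas9 (median -0.10). Of all genes tested, 50.9% and 50.1% were lower. The medians of the 9 spiny neuron genes were -0.10 and -0.14. In set B, 9 of the 16 pan-neuronal genes were lower with Cas9 than GFP (median -0.0084), and 1 of 16 was lower with GCas9 (median 0.096). Of all genes tested there, 51.3% and 50.9% were lower. The 9 oligodendrocyte markers were higher on average with Cas9 than WT in 9 of 9 (median 0.50, 9 at an unadjusted p under 0.05, 0 past the adjusted threshold by limma) and with GCas9 in 2 of 9 (median -0.037). Of the 9 cortical excitatory markers 6 were tested in set B, and 6 of 6 were higher with GCas9 than GFP (median 1.33, 4 at an unadjusted p under 0.05, 0 past the adjusted threshold by limma). Their part in the result was not tested. Taken relative to the pan-neuronal mean of each library, 8 of the 9 genes were below WT with Cas9 (median -0.030) and 7 with GCas9 (median -0.046).

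**Figure D5:**
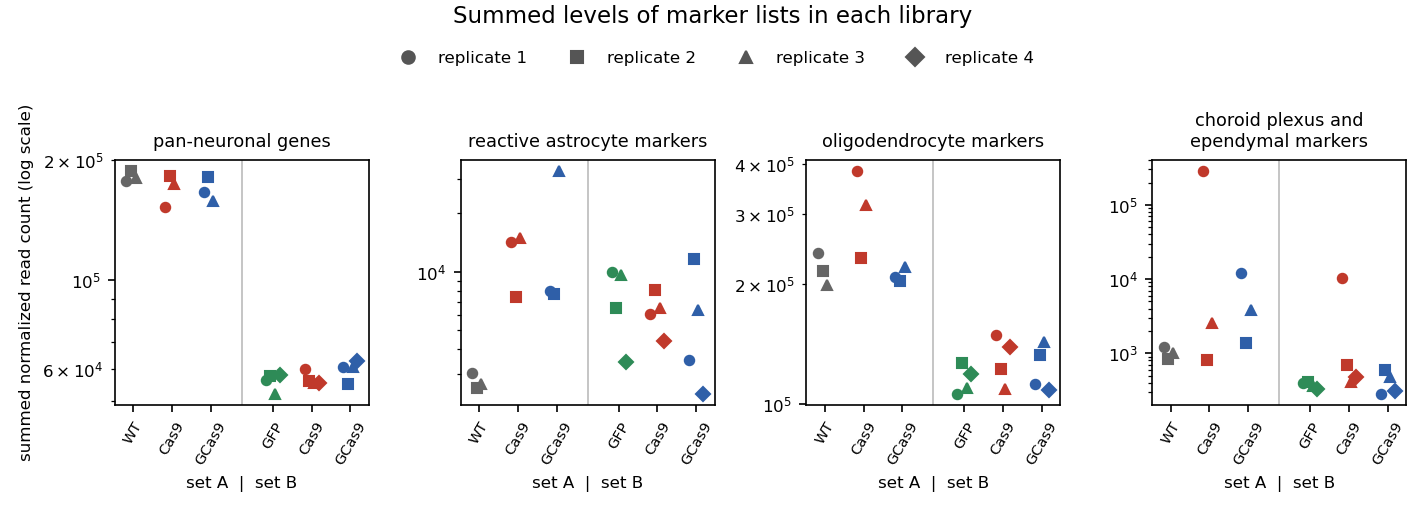
Summed normalized read counts (log axes) of the pan-neuronal genes and of the reactive astrocyte, oligodendrocyte, and choroid plexus and ependymal markers in each library, with one symbol per replicate. The choroid sum of 289000 in Cas9 replicate 1 and the reactive astrocyte sum of 33220 in GCas9 replicate 3 stand out in set A.

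Among 33 other genes of the cyclic AMP pathway, 0 passed the limma threshold in any of the 6 comparisons within a set. Against WT, 27 of 33 were lower with Cas9 (median -0.093) and 31 of 33 with GCas9 (median -0.082). The smallest p for Cas9 against WT belonged to Cdk5r1, an activator of the kinase Cdk5, at -0.25 ± 0.075, Prkar1b, a regulatory subunit of the cyclic AMP-dependent kinase, at -0.29 ± 0.090, and Akap5, which anchors that kinase, at -0.37 ± 0.16 (SE; limma adjusted p from 0.405 to 0.419). At an unadjusted p under 0.05 there were 4 of the 33 with Cas9 and 1 with GCas9 against WT (1882 and 1078 of 15924 genes tested), and 1 and 3 against GFP (963 and 999 of 15428). Against GFP, 15 of 33 were lower with Cas9 (median 0.0070) and 12 with GCas9 (median 0.052). Rgs7bp, which tethers proteins of the Rgs9 kind to the membrane, was the gene of smallest p there, from 2283 with GFP to 2837 with Cas9 and 3120 with GCas9, differences of 0.32 ± 0.12 and 0.45 ± 0.12 (SE; limma adjusted p = 0.781 and 0.477).

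Paralogs gave the following counts. Of the 16 other phosphodiesterases, 11 were lower than WT with Cas9 and 11 with GCas9, and of the 15 tested in set B, 11 and 8 were lower than GFP. Pde4a was at 2152 in WT, 1869 with Cas9 and 1910 with GCas9 (-0.20 ± 0.058 and -0.17 ± 0.058, SE). Of 8 other adenylyl cyclases tested, 3 and 6 were lower than WT and 4 and 3 lower than GFP. Adcy1, a calcium-activated cyclase, was at 508.4 with GFP, 629.8 with Cas9 and 828.9 with GCas9, a difference of 0.69 ± 0.16 (SE) for the latter (limma adjusted p = 0.36). Of 12 other G protein alpha subunits, 6 and 7 were lower than WT and 9 and 7 lower than GFP. Of 6 tested partners and paralogs of Rgs9, 5 and 6 were lower than WT and 1 and 1 lower than GFP. None of these genes passed in any comparison.

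Of 21 other transcription factors of striatal neurons or their precursors, 17 were lower than WT with Cas9 (median -0.16) and 16 with GCas9 (median -0.067), and 0 passed. Of the 20 tested in set B, 11 and 12 were lower than GFP. Tshz1, a zinc finger factor, had the smallest p of this list in set B, with means of 164.1 with GFP, 272.1 with Cas9 and 360.4 with GCas9. Its differences, 0.66 ± 0.20 and 1.12 ± 0.20 (SE), did not pass (limma adjusted p = 0.781 and 0.132). In set A, Tshz1 was at 1388 in WT, 1223 with Cas9 and 1453 with GCas9.

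For each of the 9 genes the gene most like it was sought among 11118 others, by Pearson r of log2 levels centred within each set over 21 libraries. This likeness includes group differences and is given as a description. Adcy5 was most like Adora2a, the adenosine receptor of indirect spiny neurons (r = 0.94, rho = 0.95), and Rgs9 most like Gng7, a striatal G protein gamma subunit (r = 0.91, rho = 0.85). Ppp1r1b was most like Rbfox3, the neuronal nuclear marker (r = 0.89), Pde10a like Smpd3 (0.92), Pde1b like Mmp17 (0.90), Gnal like Nckap1 (0.92), Bcl11b like Sh3rf2 (0.92) and Foxp1 like St8sia3 (0.94). Foxp2 was most like Map2k1, with r = 0.91 but a rank correlation of only 0.67. The mean of the 9 genes was most like Mmp17, Aak1 and Kcnab1, at r = 0.90 each.

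In GRCm38 with the GENCODE M21 annotation, all 9 are protein coding. Ppp1r1b (ENSMUSG00000061718) lies on chromosome 11 from 98348404 to 98357796 and Rgs9 (ENSMUSG00000020599) on chromosome 11 from 109225355 to 109298129. Pde10a (ENSMUSG00000023868) lies on chromosome 17 from 8525372 to 8986648, Pde1b (ENSMUSG00000022489) on chromosome 15 from 103503034 to 103530052, and Adcy5 (ENSMUSG00000022840) on chromosome 16 from 35154877 to 35305738. Gnal (ENSMUSG00000024524) lies on chromosome 18 from 67088216 to 67226792 and Bcl11b (ENSMUSG00000048251) on chromosome 12 from 107910403 to 108003602. Foxp1 (ENSMUSG00000030067) and Foxp2 (ENSMUSG00000029563) both lie on chromosome 6, from 98925338 to 99522721 and from 14901349 to 15441977. Exons of Ppp1r1b overlap those of 1700003D09Rik on the opposite strand and exons of Gnal those of Mppe1, also on the opposite strand, and use of strand in the counting is not given in the sources used here. Exons of Foxp1 overlap 2 gene models on its own strand, Gm20696 and Gm49348, and how reads there were counted is not given. The other 6 genes had no exon overlap.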

How the data were processed

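RNA of 21 striatal libraries was measured. Per the labels' protocols, the RNA was column-purified with integrity numbers above 8.5, and SMARTer and Nextera XT chemistry was used for cDNA and libraries, so amplified reads are not independent molecules. The submitters' processing notes list GRCm38.p3, DESeq2, HTSeq, SAMtools, STAR 2.5.2b and R 3.3.3; strand, annotation and parameters are not given in the sources used here. The deposited values are a signal per gene, read counts that the authors divided by 1 size factor per library. All values were whole reads within 0.001 reads after rescaling (100% of values), and no column was left unused. The sets were told apart by title numbering and scaling.

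Tests used limma 3.58.1 (R 4.3.3), with moderated variance and a mean trend, two-sided, on log2 of the normalized count plus 1, for genes with a mean of at least 10, each set fitted with its 3 groups and both sets together for GCas9 minus Cas9. Fold changes on this scale understate those of low genes. Adjustment was by Benjamini-Hochberg over all genes tested, at 0.05. Same-numbered libraries were correlated in their deviations from group means, since the labels name nothing shared. Every such pair was over 0.1 for GCas9 with WT (0.112 to 0.284) and for Cas9 with GCas9 of set B (0.121 to 0.329). This did not hold in the 4 other comparisons. Differently numbered libraries were not correlated, so these values cannot decide whether replicate numbers pair the libraries. Alternatives included a replicate block, edgeR 4.0.16 and DESeq2 1.42.0 on the recovered reads. The procedure was tested on simulated data in which each gene was drawn apart, so deviations shared between genes of a library were not covered. The 9 genes are given in every comparison, with at most 3 genes of smallest p per list. The genes, lists and motifs were chosen with earlier results of these data known.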

Additional observations from a re-analysis of the deposited data

Results flagged for a closer look

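In groups of 4 libraries, a library was looked at again where its gap to the nearest other library was more than 0.829 of the range of the group. Over 27 pairs of gene and group in set B, 2 met this, and chance gives about 1 in 20 groups. Both were the highest value of GFP replicate 4: Ppp1r1b at 28190 normalized counts, with a gap of 0.885 of the range to the other GFP libraries (21660 to 22410), and Foxp1 at 4077, with a gap of 0.831 (others 3574 to 3659). Set A, with 3 libraries a group, was not examined this way.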

How the results depend on the processing

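No recorded value of the 9 genes passed the threshold under any of the 12 other settings or with any of the 21 libraries left out (0 calls in 1028 values). In the contrasts of GCas9 with Cas9, values were recorded only for Rgs9, Pde1b, Adcy5 and Foxp2. These 4 genes had an unadjusted limma p under 0.3 in one of those contrasts. The sign changes and leave-one-out ranges below have the same limit. The smallest adjusted p in the comparisons with a control was 0.0508, for Foxp2 with Cas9 against WT under limma library weights. The numbers of all genes called did depend on the method. For Cas9 against WT it was 1, against 116 with DESeq2, 2570 with library weights, 6 with only the 2 groups fitted, 2 with the replicate block and 0 with edgeR. For GCas9 against WT it was 1, against 218 with DESeq2, 6 with library weights and 2 with the replicate block. For GCas9 against GFP it was 0, against 41 with DESeq2, 12 with library weights, 7 with only the 2 groups fitted and 5 with the replicate block. For Cas9 against GFP it was 0 against 10 with DESeq2, and for GCas9 against Cas9 in set A 0 against 5 with DESeq2 and 932 with library weights. With one library left out these counts ran from 0 to 7. In 4 comparisons some same-numbered libraries had correlations of deviations under 0.1, which does not settle whether the numbers pair the samples. Over all comparisons these correlations ran from -0.0186 to 0.644 in set A (6 of 9 over 0.1) and from -0.13 to 0.462 in set B (7 of 12). In every comparison the replicate block changed no call of the 9 genes.

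Of the log2 differences that changed sign, the largest afterwards was -0.12, for Foxp1 with GCas9 against GFP relative to pan-neuronal genes. The cause of these changes was not tested. With library weights, Cas9 against WT was 0.017 for Ppp1r1b, 0.032 for Rgs9, 0.081 for Pde10a and 0.024 for Bcl11b; Cas9 against GFP was 0.014 for Pde1b and 0.0098 for Bcl11b; GCas9 against GFP was 0.061 for Pde10a; and GCas9 against Cas9 in set A was -0.039 for Pde1b. Relative to pan-neuronal genes, Cas9 against WT was 0.030 for Rgs9, GCas9 against WT 0.019 for Bcl11b and 0.015 for Foxp2, GCas9 against Cas9 0.014 for Adcy5 in set A and -0.030 for Rgs9 in set B, and Cas9 against GFP -0.0017 for Rgs9. On that scale GCas9 against GFP was -0.032 for Rgs9, -0.033 for Pde1b, -0.066 for Adcy5, -0.067 for Gnal, -0.11 for Bcl11b and -0.12 for Foxp1, with a median of -0.067 against 0.057. With quantile normalization, GCas9 against Cas9 in set A was 0.052 for Adcy5, and GCas9 against GFP was -0.019 for Adcy5, -0.013 for Bcl11b and -0.035 for Foxp1. The change of GCas9 minus Cas9 from set A to set B was then -0.045 for Pde1b, and -0.038 relative to pan-neuronal genes. With TMM scaling GCas9 against GFP was 0.00087 for Pde10a.

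Leaving out one library gave ranges across 0 for Cas9 against WT of -0.092 to 0.012 for Rgs9, -0.17 to 0.047 for Pde10a, -0.165 to 0.035 for Bcl11b and -0.19 to 0.020 for Foxp1, each high end without Cas9 replicate 1. For Cas9 against GFP they were -0.000064 to 0.0996 for Rgs9, -0.20 to 0.099 for Pde10a, -0.039 to 0.037 for Pde1b and -0.072 to 0.037 for Bcl11b, and for GCas9 against GFP -0.048 to 0.055 for Pde10a, -0.0073 to 0.11 for Adcy5, -0.029 to 0.069 for Bcl11b and -0.046 to 0.046 for Foxp1. For GCas9 against Cas9 in set A they were -0.19 to 0.00058 for Rgs9, -0.061 to 0.091 for Pde1b and -0.076 to 0.089 for Adcy5, and for the mean of the sets -0.069 to 0.027 for Rgs9 and -0.0066 to 0.13 for Foxp2. The number of the 9 genes with all libraries below the control went from 1 to between 1 and 3 for Cas9 against WT, from 1 to between 1 and 8 for GCas9 against WT, and from 0 to between 0 and 1 for Cas9 against GFP. With fewer libraries such gaps are more frequent over all genes too, at 12.3%, 15.5% and 4.04% for the upper ends.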
